A study of Mus musculus with 10 samples.

Results

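Hepatic amino acid catabolism was examined as a set of 44 genes whose enzymes break down tyrosine, tryptophan, serine, glycine, methionine, cysteine, proline, ornithine, histidine, lysine and the branched-chain amino acids. The genes were listed by name, with earlier results of these data known, and make up 44 of the 55487 gene identifiers in each of the 2 liver tables. All 44 passed the filter on low counts in both experiments. In the diet experiment, male C57BL/6J mice aged 8 weeks were fed for 7 days on high-fat diet (HFD) or on chow, then underwent partial hepatectomy (PHx), the surgical removal of most of the liver, and the regrowing remnant was sampled 40 hours later (3 libraries per group). In the inhibitor experiment, mice labelled with the same strain, sex and age received SSO at 40 mg/kg, or its solvent as vehicle, 1 day before PHx, and liver was sampled 48 hours after it (4 libraries per group). The labels give SSO as an abbreviation only; it is the usual short name of sulfosuccinimidyl oleate, a blocker of the fatty acid receptor CD36. Every mouse in all 4 groups had PHx, so neither experiment shows the genes in an uninjured liver. Nothing in the labels says whether the 4 inhibitor libraries of a group came from separate mice, and p-values of that experiment reflect library-to-library spread that may be technical.

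Library totals ranged from 31.9 to 39.9 M counts for diet and from 25.2 to 30.4 M for the inhibitor. Levels are given as CPM, counts scaled to a library of 1 M. Where a gene had 0 counts, its level could still be as high as 3 counts, equal to 0.0770 to 0.0921 CPM in the diet libraries and 0.0816 to 0.136 CPM in the others, which covers counting error only. Albumin (Alb), the main secreted hepatocyte protein, stood at 45143 ± 12702 CPM in chow and 63415 ± 14786 CPM in vehicle liver (mean ± SD), so the defining hepatocyte product was abundant. The inhibitor libraries went against their label of male mice: Xist, transcribed from the inactive X chromosome, stood at 697 to 1770 CPM in all 8, and the Y-linked Ddx3y, Kdm5d, Eif2s3y and Uty were at 0. In the diet libraries Xist stood at 0 to 0.62 CPM. The 4 vehicle libraries also stood apart from each other, with vehicle 1 and 3 low and vehicle 2 and 4 high in most of the 44 genes, and this is set out with the inhibitor results.

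The liver is the main site of amino acid breakdown, most of which takes place in hepatocytes. Aminotransferases and deaminases remove the nitrogen, which is passed to urea, and the carbon skeletons enter gluconeogenesis, ketone formation or the citric acid cycle. The methionine cycle is part of the same network: methionine is activated to S-adenosylmethionine, the methyl donor of the cell, and the sulfur is carried through homocysteine to cysteine and taurine. Several of these enzymes, Tat and Tdo2 among them, are textbook markers of the mature hepatocyte and are induced by glucocorticoids and fasting.

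A RefSeq entry for the promoter (build GRCm38.p6) was matched for 36 of the 44 genes. The 100 bases before the RefSeq start of 4 genes with lower levels in HFD liver are printed, chosen because they hold fewer than 5 bases of any GENCODE exon. They are written 5′ to 3′ on the gene's strand, and capitals mark a CCAAT box, a short proximal promoter element bound by NF-Y, in either orientation (CCAAT, or ATTGG on the opposite strand). Tat lies at chr8:109990336-109990435 on the plus strand. The other stretches are on the minus strand, at chr17:46729166-46729265 for Gnmt, chr2:155074498-155074597 for Ahcy and chr5:123182724-123182823 for Hpd.
Tat: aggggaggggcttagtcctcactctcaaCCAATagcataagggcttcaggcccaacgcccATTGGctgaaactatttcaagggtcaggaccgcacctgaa
Gnmt: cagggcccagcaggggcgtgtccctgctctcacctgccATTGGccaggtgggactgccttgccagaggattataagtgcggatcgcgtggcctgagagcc
Ahcy: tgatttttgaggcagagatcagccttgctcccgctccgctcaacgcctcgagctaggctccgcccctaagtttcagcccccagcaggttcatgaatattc
Hpd: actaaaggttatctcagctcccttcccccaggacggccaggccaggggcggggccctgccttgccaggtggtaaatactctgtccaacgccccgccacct

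Across the 250 bases before the start, searched on both strands, CCAAT was found in 23 of 36 members (63.9%) against 34.5% of 27025 RefSeq promoters. Among members called lower in HFD liver it was found in 5 of the 7 with an entry. Tat held 3 copies, at 168, 72 and 40 bases before the start, and Gnmt held 1 copy, 62 bases before it. The Ahcy copy lay 237 bases before the start and so outside the printed stretch. The TATA box (TATAAA) was found in 11.1% of members against 13% of all promoters, the E-box CACGTG in 5.56% against 6.05%, and the C/EBP motif TTGCNNAA in 11.1% against 9.55%. No member promoter held the D-box TTATGNAA, found in 3.23% of all promoters, which can overlap the C/EBP motif in part. The median GC content was 55.8% in members and 52.0% in all promoters, so base composition differed between the sets being compared. These matches describe letters in a window and do not show binding.

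Amino acid catabolism transcripts were lower in HFD than in chow liver 40 hours after PHx. In the edgeR quasi-likelihood test, 11 of the 44 (25%) fell at an adjusted p under 0.05, against 0.718% called lower among all 15589 genes tested, while 2.32% of all genes were called in either direction. None of the 44 was called higher, where 1.6% of all genes were; at an unadjusted p under 0.05, 1 was higher (Kmo, against 7.52% of all genes) and 27 lower (against 7.47%), and DESeq2 and limma-voom also called 0 higher. The 11 were Tat, Hpd, Tdo2, Sds, Gnmt, Bhmt, Cth, Ahcy, Cdo1, Prodh and Gpt, and in each the 3 HFD libraries lay below the 3 chow libraries. Of the 44, 40 had a log2 fold change below 0, against 52.7% of all genes, and their median was -0.49 (range -2.11 to 0.40) against -0.02 for all genes. Without overlap between the groups, 25 members were lower in HFD, where 10.8% of all genes were, and 2 were higher (Kmo and Aadat), where 11.2% of all genes were. In bulk liver, fewer hepatocytes and less RNA per hepatocyte cannot be told apart; the 13 hepatocyte secreted-protein genes measured had a median log2 change of -0.13, with 0 called (2 lower at an unadjusted p under 0.05, and 0 by DESeq2).

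The count of 11 varied with single libraries, as did calls over all genes. It was 1 (Sds) without HFD 1, 2 (Sds and Prodh) without HFD 3, 4 without HFD 2 and 5 without chow 2. It was 9 without chow 3 and 14 without chow 1. Over all genes, 112 were called lower with every library kept. In the same order of fits, 10, 28, 38, 49, 140 and 266 were. The direction of the set did not depend on single libraries: its median log2 change stayed between -0.54 and -0.46 in these 6 fits.

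**Figure D1:**
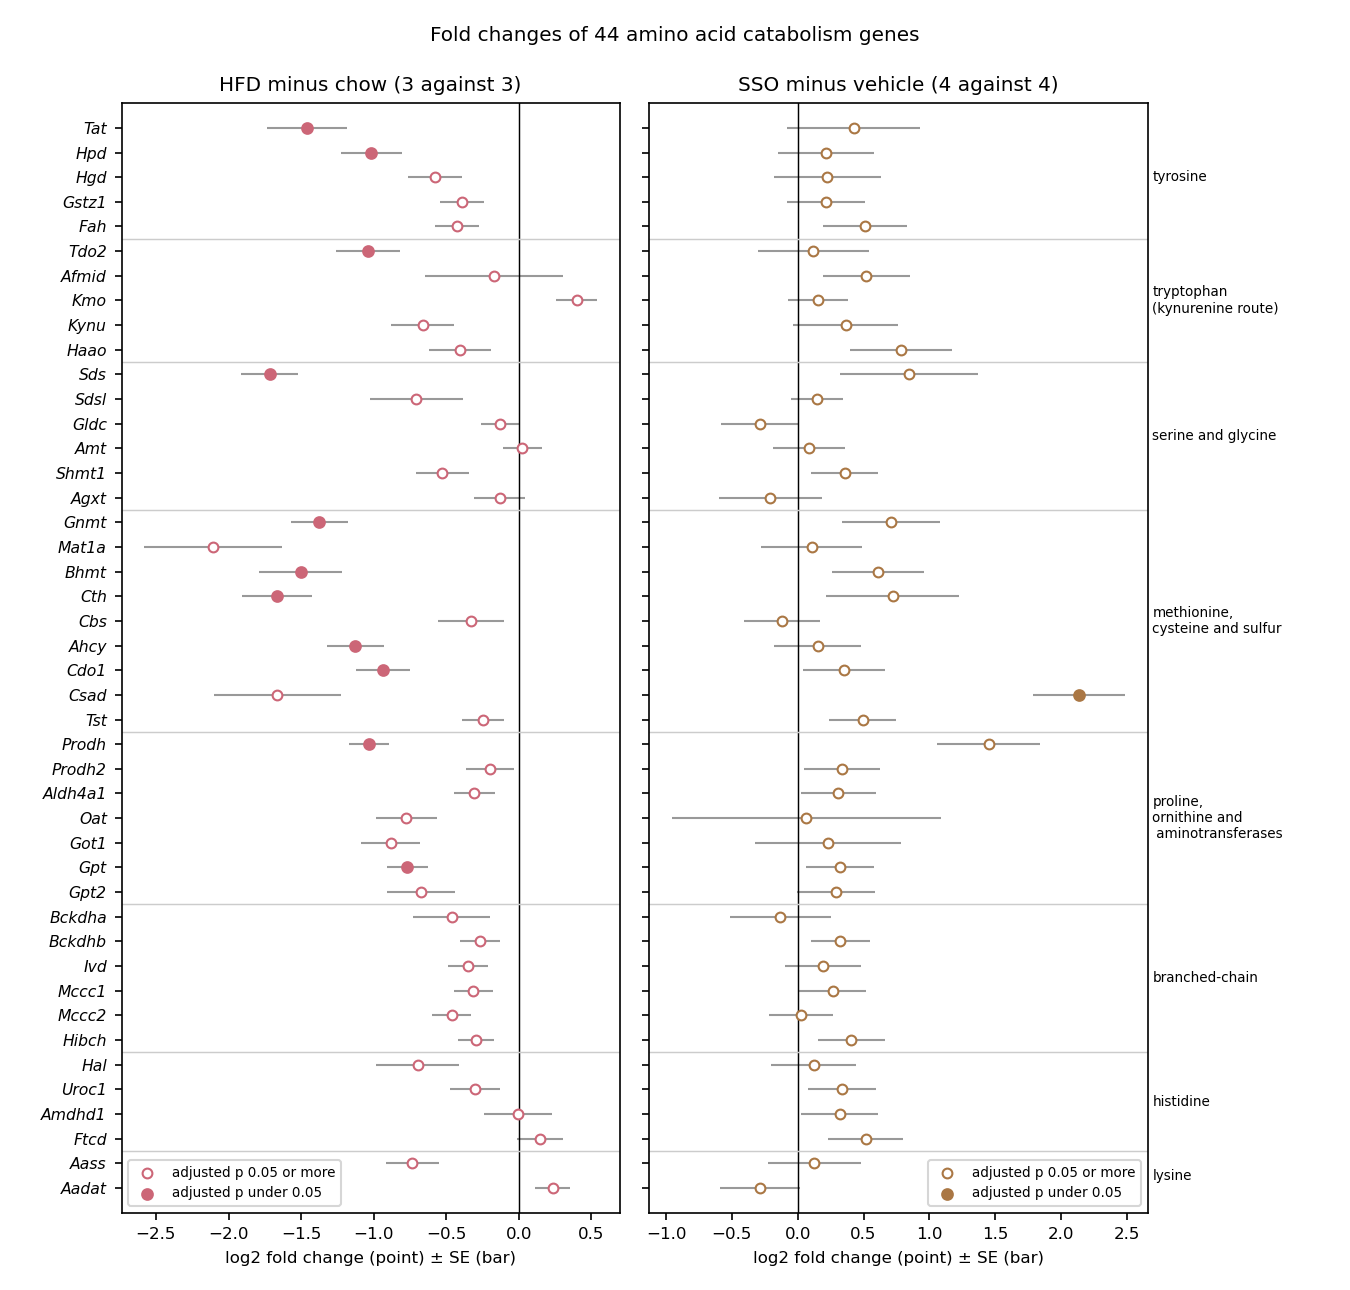
Log2 fold change (point) and SE (bar) of each of the 44 genes, grouped by amino acid, for HFD minus chow (left, 3 against 3 libraries) and SSO minus vehicle (right, 4 against 4); filled points have an adjusted p under 0.05. On the left 40 points lie below 0 and 11 are filled; on the right 39 lie above 0 and 1, Csad, is filled.

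Both entry enzymes of tyrosine breakdown fell. Tat, tyrosine aminotransferase (chr8:109990437-109999803), stood at 1126, 1776 and 2468 CPM in the chow libraries and at 587, 691 and 674 CPM in the HFD libraries. The groups did not overlap, and the level was 2.75-fold lower in HFD (log2 -1.46 ± 0.27 SE, adjusted p = 0.0300). Hpd, which converts the product of Tat to homogentisate (chr5:123171807-123182727), was at 1764, 1559 and 2242 CPM in chow and at 776, 1080 and 896 CPM in HFD, a fall of 1.02 ± 0.21 on the log2 scale (adjusted p = 0.0439). The remaining 3 enzymes of the route, Hgd, Gstz1 and Fah, were also below every chow library in every HFD library, with log2 changes of -0.58, -0.39 and -0.43 and adjusted p-values of 0.177, 0.264 and 0.228. The larger changes were thus at the entry steps, a contrast that was not tested. Gstz1 shares 12.2% of its exon length with genes on the opposite strand, and since strand use in counting is not given, its level is uncertain. The Tat call was lost without chow 2 (adjusted p = 0.0987) or without any HFD library (up to 0.183), and the Hpd call in every leave-one-out fit except that without chow 1 (up to 0.242).

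In tryptophan breakdown through kynurenine, the first enzyme fell and no other was called. Tdo2, tryptophan dioxygenase (chr3:81957090-81976202), stood at 998, 1418 and 1104 CPM in chow and at 443, 687 and 583 CPM in HFD, 2.05-fold lower (log2 -1.04 ± 0.22 SE, adjusted p = 0.0471). Its call was lost in every leave-one-out fit except that without chow 1 (adjusted p up to 0.233). Kmo, kynurenine monooxygenase, lay in the opposite direction, at 343, 308 and 351 CPM in chow and 436, 440 and 445 CPM in HFD. Its HFD libraries were all above the chow libraries, but the change of 0.40 ± 0.14 on the log2 scale did not pass (adjusted p = 0.223). Kynu, kynureninase, had a log2 change of -0.66 with HFD 2 close to the lowest chow library (adjusted p = 0.186), and Haao had -0.41 (adjusted p = 0.423). Afmid, the formamidase of the second step, was low in every diet library, at 7.56 to 23.3 CPM, with overlapping groups.

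Sds, serine dehydratase, had the smallest p-value of the 44. The gene (chr5:120476526-120483932) makes the enzyme that turns serine into pyruvate for gluconeogenesis. Its level was 162, 138 and 193 CPM in chow and 45.2, 62.8 and 41.9 CPM in HFD, 3.29-fold lower (log2 -1.72 ± 0.20 SE, adjusted p = 0.00375). All chow libraries were far above all HFD libraries, and the call held in each of the 6 leave-one-out fits (adjusted p up to 0.0447). Exons of Gm15690 and Plbd2 on the opposite strand cover 29.6% of its exon length, so the level itself is uncertain. The neighbouring paralog Sdsl (chr5:120458186-120472810) was at 13.4 to 28.8 CPM in chow against 8.53 to 14.3 CPM in HFD, overlapping groups with a log2 change of -0.71 (adjusted p = 0.362).

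None of the glycine genes was called. Amt and Gldc, components of the glycine cleavage system, had log2 changes of 0.03 ± 0.13 and -0.13 ± 0.13. Agxt, which transaminates glyoxylate to glycine, had the highest mean of the serine and glycine genes over all 14 libraries. It stood at 244, 201 and 238 CPM in chow and 199, 252 and 173 CPM in HFD, groups that overlapped (adjusted p = 0.785). Shmt1, the cytosolic serine hydroxymethyltransferase, was at 127 to 207 CPM in chow against 113 to 121 CPM in HFD, without overlap (log2 -0.53 ± 0.18 SE, adjusted p = 0.210).

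The methionine, cysteine and sulfur genes held the most calls, 5 of 9, with a median log2 change of -1.37. Bhmt, betaine-homocysteine methyltransferase (chr13:93616675-93637961), stood at 6471, 3118 and 3592 CPM in chow and at 1654, 1556 and 1438 CPM in HFD. Chow 1 was the highest and the HFD libraries were close together; the level was 2.84-fold lower in HFD (log2 -1.50 ± 0.28 SE, adjusted p = 0.0307). Gnmt, glycine N-methyltransferase, which disposes of excess S-adenosylmethionine (chr17:46725664-46729168), was at 1678, 1244 and 1544 CPM in chow and at 522, 678 and 523 CPM in HFD (log2 -1.37 ± 0.20 SE, adjusted p = 0.00989). Ahcy, which splits S-adenosylhomocysteine (chr2:155059310-155074497), was at 1351, 1778 and 1716 CPM in chow and at 615, 821 and 783 CPM in HFD (log2 -1.13 ± 0.19 SE, adjusted p = 0.0215). All 3 genes were separated by group with no overlap.

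Further along the sulfur route, Cth and Cdo1 fell as well. Cth, cystathionine gamma-lyase (chr3:157894248-157925077), releases cysteine from cystathionine. It stood at 689, 446 and 438 CPM in chow and at 140, 212 and 144 CPM in HFD, 3.18-fold lower (log2 -1.67 ± 0.24 SE, adjusted p = 0.0106). Cdo1, cysteine dioxygenase, was at 1069, 1336 and 1310 CPM in chow and at 541, 742 and 658 CPM in HFD, 1.91-fold lower (log2 -0.94 ± 0.19 SE, adjusted p = 0.0388). Cbs, the enzyme directly before Cth, differed less, at 512 to 630 CPM in chow against 312 to 543 CPM in HFD (log2 -0.33 ± 0.23 SE, adjusted p = 0.550). Without HFD 1 or without HFD 3 the calls of Gnmt (adjusted p = 0.0893 and 0.0674) and Cth (0.0877 and 0.0674) were lost. Bhmt was lost without any one HFD library (up to 0.155), Ahcy without chow 2 or any HFD library (up to 0.151), and Cdo1 in every such fit except that without chow 1 (up to 0.221).

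The gene with the largest fitted change of the 44 was not called by edgeR. Mat1a, the liver form of methionine adenosyltransferase (chr14:41105035-41124412), stood at 2329, 7353 and 8568 CPM in chow and at 988, 1541 and 1710 CPM in HFD. The groups did not overlap, but chow 1 was far below the other chow libraries, and the log2 change of -2.11 ± 0.48 missed the threshold (adjusted p = 0.0732). Without chow 1 it was -2.49 with an adjusted p of 0.00138, and DESeq2 (adjusted p = 2.66e-07) and the replicate block (0.0291) called it. The other 10 of 13 alternatives did not call it (adjusted p from 0.0704 to 0.314). Chow 1 was the chow library nearest to HFD, so leaving it out enlarges the change by construction. Csad, which makes the taurine precursor hypotaurine (chr15:102176999-102204724), was at 70.1, 146 and 68.2 CPM in chow and 25, 19 and 45.8 CPM in HFD, also without overlap (log2 -1.66 ± 0.44 SE, adjusted p = 0.134 with edgeR and 5.32e-05 with DESeq2). Tst, the sulfurtransferase rhodanese, had a log2 change of -0.25 (adjusted p = 0.491).

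**Figure D2:**
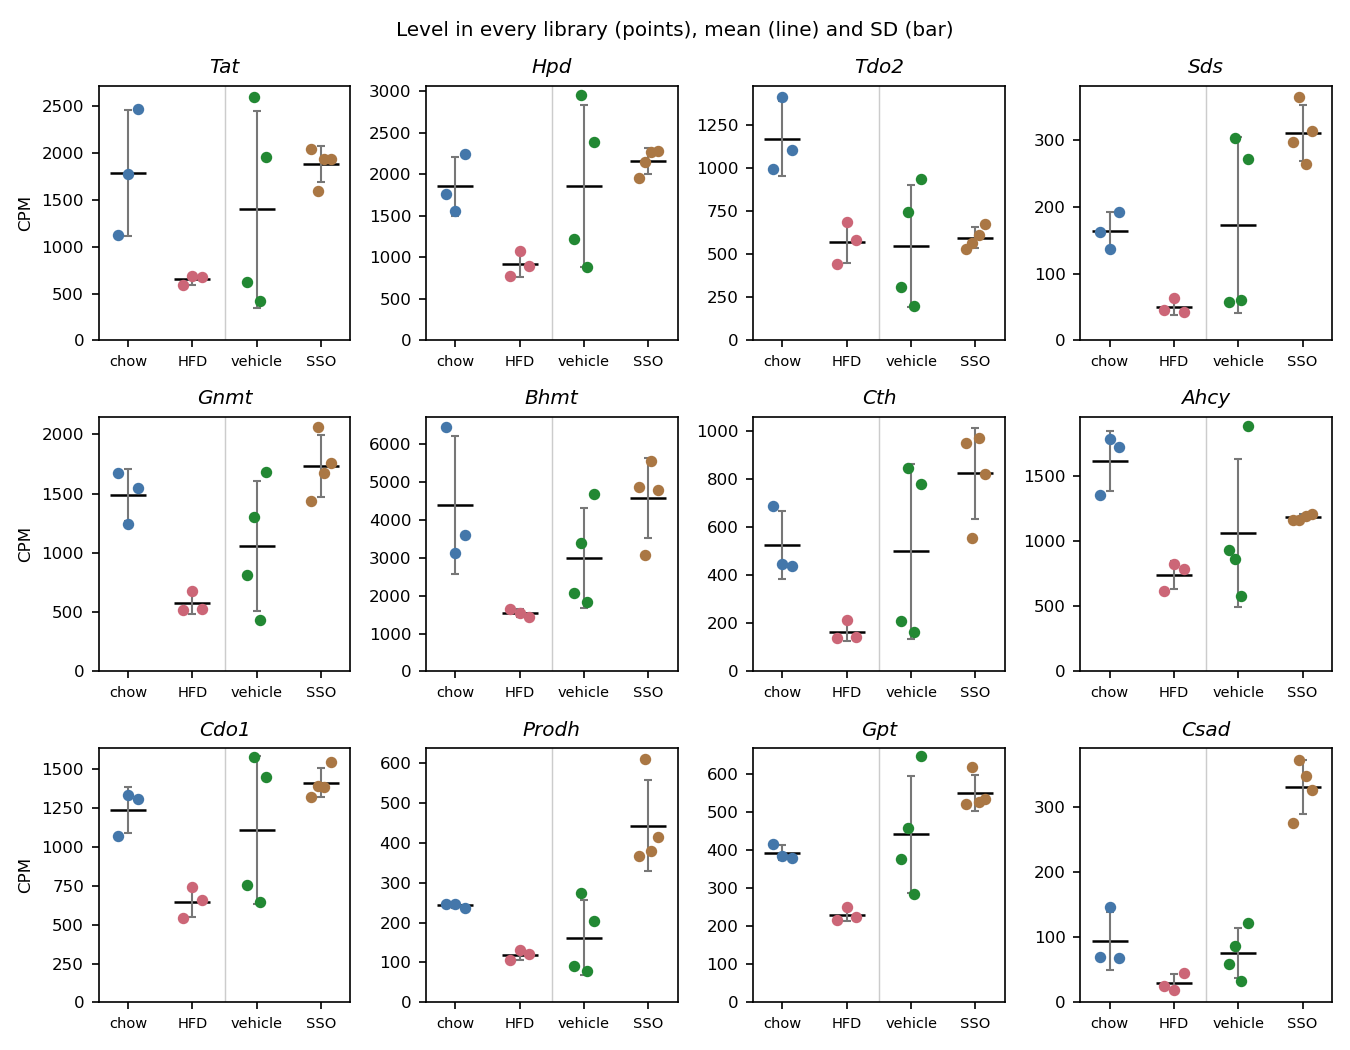
Level in CPM of the 11 genes called in HFD against chow, and of Csad, called in SSO against vehicle; each point is a library, lines are group means and bars the SD (3 chow, 3 HFD, 4 vehicle and 4 SSO libraries), with the 2 experiments separated by a grey line. HFD points lie below all chow points in each panel, and vehicle points are spread more widely than SSO points in most panels.

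Of the proline, ornithine and aminotransferase genes, 2 of 7 fell and the other 5 had log2 changes below 0. Prodh, the mitochondrial proline dehydrogenase (chr16:18060357-18090203), stood at 247, 248 and 237 CPM in chow and at 106, 131 and 122 CPM in HFD. Replicates were tight in both groups, and the level was 2.04-fold lower (log2 -1.03 ± 0.14 SE, adjusted p = 0.00786), a call lost without HFD 1 (0.0680). Its paralog Prodh2, which acts on hydroxyproline, was at 236 to 304 CPM in chow against 206 to 273 CPM in HFD, overlapping groups with a log2 change of -0.20 ± 0.17 (adjusted p = 0.638). Gpt, the cytosolic alanine aminotransferase (chr15:76695716-76699686), was at 416, 383 and 379 CPM in chow and 217, 251 and 224 CPM in HFD (log2 -0.77 ± 0.14 SE, adjusted p = 0.0281), a call lost without chow 2 (0.0754) or any HFD library (up to 0.187). Its mitochondrial paralog Gpt2 had a log2 change of similar size, -0.67 ± 0.23, with overlapping groups and an adjusted p of 0.217. Neither paralog pair was tested for a difference between its members.

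Oat, ornithine aminotransferase (chr7:132557478-132576398), had the highest mean of these 7 genes over all 14 libraries, though in vehicle 1, 3 and 4 it was below Gpt. It stood at 2644, 1787 and 2300 CPM in chow and 1137, 1284 and 1518 CPM in HFD, groups that did not overlap (log2 -0.77 ± 0.21 SE, adjusted p = 0.107). Got1, the cytosolic aspartate aminotransferase, was likewise separated, at 227 to 303 CPM against 103 to 160 CPM (log2 -0.88 ± 0.20 SE, adjusted p = 0.0646). Aldh4a1, which takes the proline product to glutamate, had a log2 change of -0.31 (adjusted p = 0.348).

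Branched-chain, histidine and lysine genes gave 0 calls in edgeR and limma-voom, and DESeq2 called 1 (Aass). At an unadjusted p under 0.05, 4, 1 and 1 were lower, where 7.47% of all genes were. All 6 branched-chain genes had log2 changes below 0 within a narrow range, -0.46 to -0.27. In 4 of them the HFD libraries lay below all chow libraries, against 10.8% of all genes. Ivd, isovaleryl-CoA dehydrogenase of leucine breakdown with the highest mean of them over all 14 libraries, was at 194, 210 and 225 CPM in chow and at 153, 179 and 160 CPM in HFD (log2 -0.35 ± 0.14 SE, adjusted p = 0.269). The subunits of methylcrotonyl-CoA carboxylase moved alike, with -0.31 ± 0.13 for Mccc1 and -0.46 ± 0.13 for Mccc2. The E1 subunits of the branched-chain ketoacid dehydrogenase had -0.46 ± 0.26 (Bckdha) and -0.27 ± 0.14 (Bckdhb), and Hibch, of valine breakdown, had -0.29 ± 0.12. The Bckdha level is uncertain, since B3gnt8 on the opposite strand covers 61.7% of its exon length.

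The histidine route was the least shifted, with a median of -0.15 over 4 genes. Uroc1, urocanase, which had the highest mean of them over all 14 libraries, was at 463, 383 and 391 CPM in chow and at 310, 398 and 294 CPM in HFD, overlapping groups (adjusted p = 0.47). Hal, histidine ammonia-lyase, had a log2 change of -0.70 ± 0.29 with HFD 2 inside the chow range (adjusted p = 0.297). Its neighbour Amdhd1 (chr10:93523338-93540033, beside Hal at chr10:93488768-93519304) had -0.01 ± 0.23, and Ftcd had 0.15 ± 0.16. In lysine breakdown, Aass, the entry enzyme, was at 317, 280 and 424 CPM in chow and at 200, 224 and 190 CPM in HFD without overlap (log2 -0.73 ± 0.18 SE, adjusted p = 0.0839). Aadat, the aminoadipate aminotransferase, was higher in every HFD library than in any chow library, by 0.23 ± 0.12 on the log2 scale (adjusted p = 0.427).

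**Figure D3:**
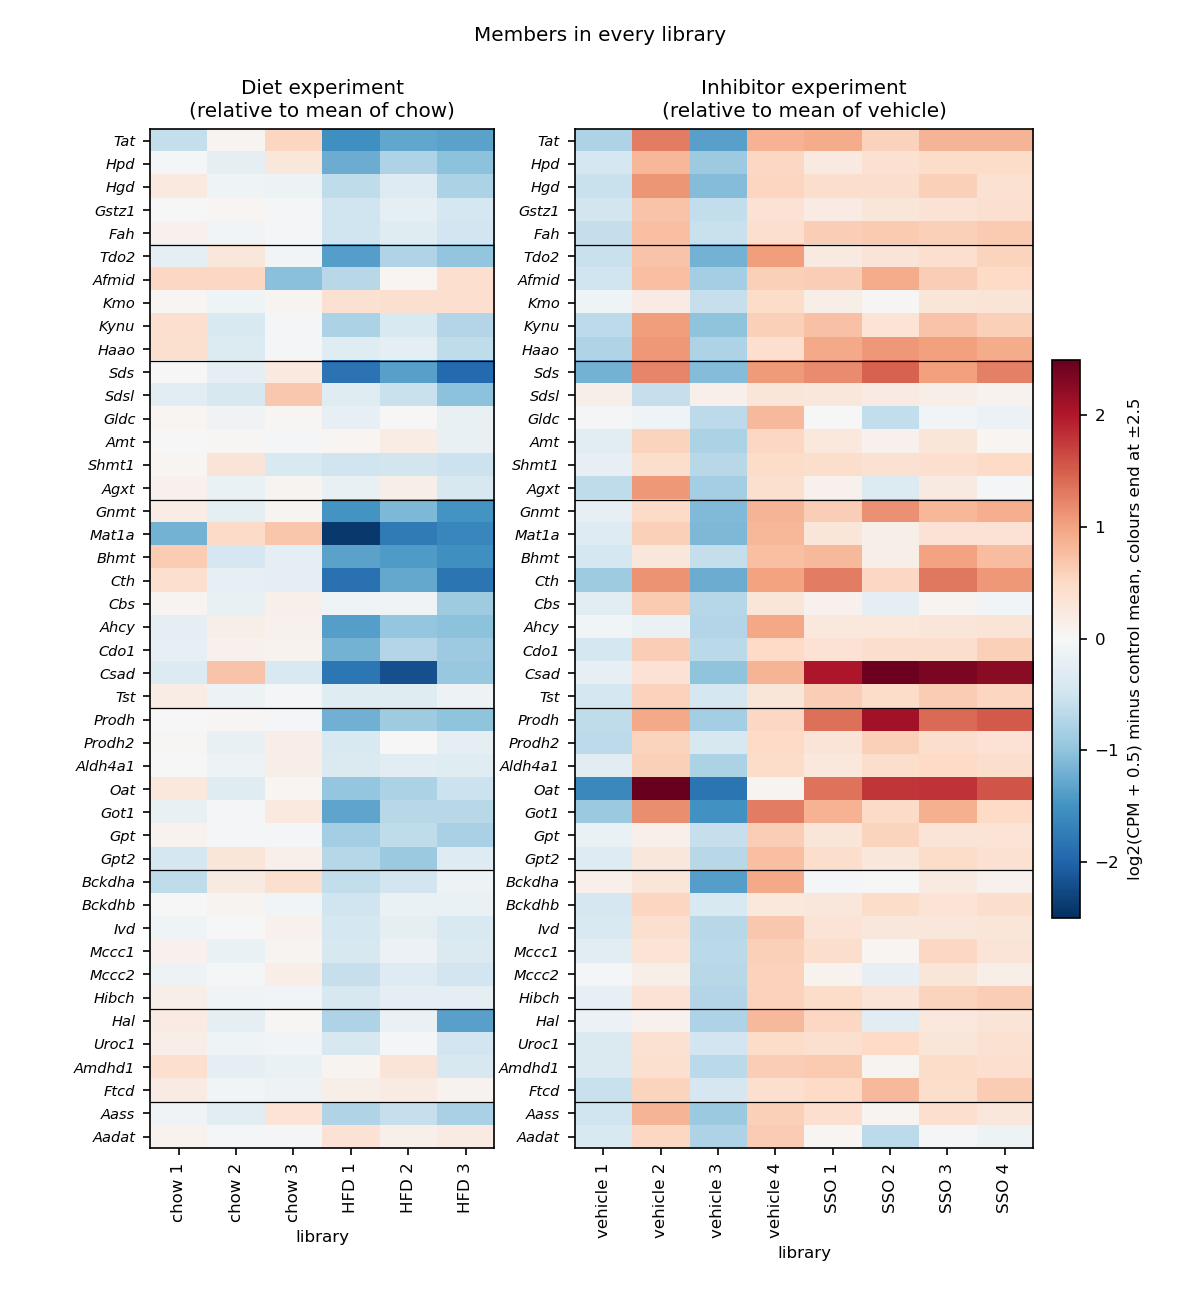
Level of each of the 44 genes (rows, grouped by amino acid with black lines) in each library (columns), as log2(CPM + 0.5) minus the mean of chow (left) or of vehicle (right); red is above and blue below the control mean. Blue prevails in the 3 HFD columns, and in the vehicle columns 1 and 3 are blue and 2 and 4 red in most rows.

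Of 51 other enzymes of amino acid breakdown measured, 3 fell and 0 rose in HFD liver with edgeR, where 0.718% of all genes were called lower. Their median log2 change was -0.29, and it was not tested against that of the 44 genes. Bhmt2 (279 ± 15.8 CPM in chow and 145 ± 9.52 CPM in HFD, log2 -0.95, adjusted p = 0.00989) and Dmgdh, dimethylglycine dehydrogenase (log2 -0.76, adjusted p = 0.0298), are neighbours of Bhmt on chromosome 13, at 93655720 to 93674302 and 93674433 to 93752833. Bhmt2 is a second homocysteine methyltransferase, and Dmgdh oxidises the dimethylglycine that Bhmt releases from betaine. All 3 of these neighbours fell. Suox, sulfite oxidase, fell from 110 ± 3.65 to 65.5 ± 6.28 CPM (log2 -0.75, adjusted p = 0.0192). Glud1, glutamate dehydrogenase and the most abundant of the list, was at 1658 ± 70.7 CPM in chow and 1215 ± 98.8 CPM in HFD (adjusted p = 0.238). The 22 amino acid carriers measured had 0 calls (9 lower and 1 higher at an unadjusted p under 0.05, and 4 and 1 by DESeq2) and a median of -0.49, equal to that of the 44 genes.

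Among 23 glucocorticoid and fasting regulators and their targets, edgeR called 1 lower and 0 higher, against 0.718% and 1.6% of all genes. The 1 was G6pc, the glucose-6-phosphatase of gluconeogenesis (259 ± 33.9 CPM in chow and 138 ± 11.1 CPM in HFD, adjusted p = 0.0188). At an unadjusted p under 0.05, 6 were lower and 0 higher, DESeq2 called 3 lower and 0 higher, and 18 had changes below 0. The list's median was -0.34, and Hnf4a, a hepatocyte transcription factor, stood at 503 ± 75.5 CPM in chow and 502 ± 13.8 CPM in HFD. Of 15 clock genes, edgeR called 5 lower (Dbp, Per3, Ciart, Tef and Cry2) and 0 higher, and 10 had changes below 0. DESeq2 and limma-voom each called 1 higher; at an unadjusted p under 0.05, 2 were higher, Arntl (log2 0.94, adjusted p = 0.0577) and Clock (log2 0.36), named here after their values were seen. The clock list's summed level was 444 to 628 CPM in chow against 324 to 352 CPM in HFD. Cell-cycle genes moved the other way, with 11 of 12 higher and a summed level of 50.4 to 103 CPM in chow against 539 to 789 CPM in HFD. Mki67, a marker of cycling cells, was at 10.8 ± 4.22 CPM in chow and 110 ± 15.2 CPM in HFD (log2 3.35, adjusted p = 0.00103). The part of these lists in the amino acid result was not tested. Sampling hour of the day is not given in the sources used here.

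Markers of other liver cell types gave 0 calls by edgeR in HFD against chow in each of the 7 lists: Kupffer cell and macrophage, sinusoidal endothelium, stellate cell and fibroblast, cholangiocyte, lymphocyte, neutrophil and erythroid. At an unadjusted p under 0.05 the most were in the erythroid list (4 lower) and the cholangiocyte list (2 higher), and DESeq2 called 4 and 2 in these lists, 1 lower among stellate cell and fibroblast markers and 1 lower among neutrophil markers. The 12 macrophage markers summed to 155 to 335 CPM in chow against 246 to 446 CPM in HFD, overlapping ranges, and no macrophage marker was at 0 counts in all libraries. Clec4f, a Kupffer cell marker, stood at 51.1 ± 13.4 CPM in chow and 66.2 ± 23.5 CPM in HFD.

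**Figure D4:**
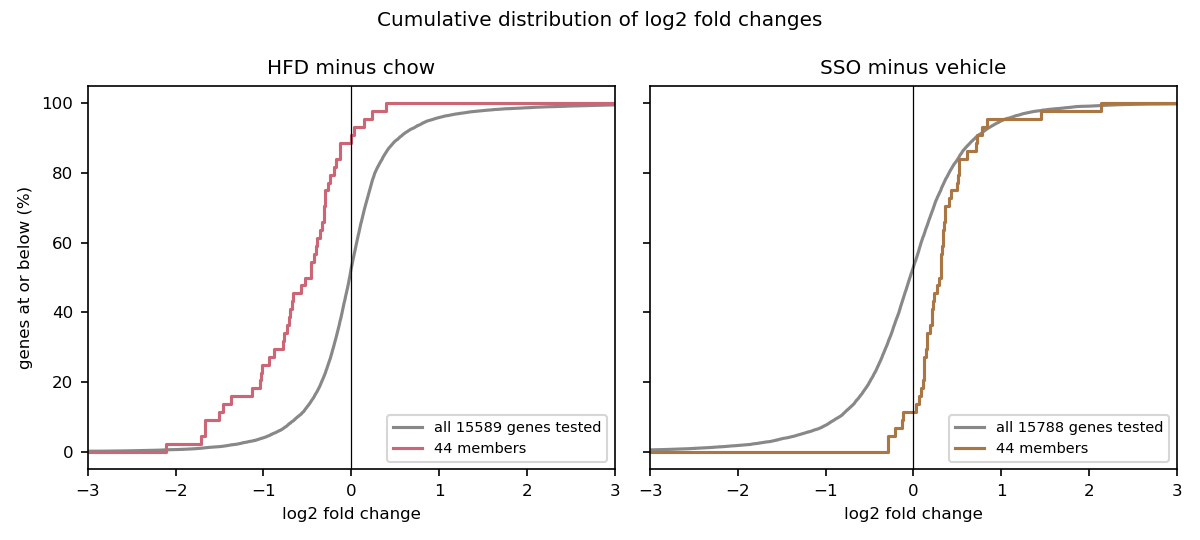
Percentage of genes at or below a given log2 fold change for all genes tested (grey) and the 44 amino acid catabolism genes (coloured), for HFD minus chow (left) and SSO minus vehicle (right). The coloured curve lies to the left of the grey one in the diet experiment, with medians of -0.49 and -0.02, and to its right over most of its range in the inhibitor experiment, with medians of 0.30 and -0.04.

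In the inhibitor experiment 1 of the 44 genes rose and 0 fell, against 0.317% called higher and 0.45% called in either direction among 15788 genes with edgeR. At an unadjusted p under 0.05, 2 were higher (Csad and Prodh, against 7.96% of all genes) and 0 lower (against 12.5%), and DESeq2 called these 2. Csad, the taurine-route decarboxylase, stood at 58.5, 86.8, 33.3 and 123 CPM in vehicle and at 276, 373, 347 and 326 CPM in SSO liver. Each SSO library was far above the highest vehicle library, and the level was 4.39-fold higher (log2 2.14 ± 0.35 SE, adjusted p = 0.0369). The call was lost without vehicle 1 (adjusted p = 0.107) or any one SSO library (up to 0.157). In each of those fits 0 of all genes tested were called. The log2 change of Csad stayed between 1.89 and 2.49 with 1 library left out. Prodh was the other gene without overlap, at 91.7, 274, 78.8 and 204 CPM in vehicle and 368, 610, 380 and 414 CPM in SSO, with a log2 change of 1.45 ± 0.39 that did not pass (adjusted p = 0.111). Of 8 leave-one-out fits, Prodh was called in 1, that without vehicle 2 (adjusted p up to 0.286 in the others). Vehicle 2 was its highest vehicle library, so leaving it out raises the change by construction. Without vehicle 2 the Prodh change was 1.83 with an adjusted p of 0.00923, and the count of members called was then 4 (Csad, Haao, Oat and Prodh). In that fit 2646 of all 16339 genes tested were called, 1138 of them higher. Groups without overlap and SSO above made up 6.14% of all genes.

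Most of the set was shifted upward by a small amount that the vehicle spread covered. Of the 44, 39 had a log2 change above 0, against 47.0% of all genes, with a median of 0.30 (range -0.29 to 2.14) against -0.04. In 29 of the 44, every SSO library lay between the lowest and the highest vehicle library, against 34.1% of all genes, a smaller share. The median SD over libraries, on the log2(CPM + 0.5) scale, was 0.65 for members in vehicle, against 0.41 for all genes, and 0.15 in SSO, against 0.23 for all genes. In chow and HFD it was 0.21 each. The 11 genes that fell in HFD liver had SSO changes of 0.12 to 1.45, all above 0. The SSO changes of Tat, Hpd, Tdo2, Ahcy, Cdo1 and Gpt took the other sign in at least 1 alternative fit. None of the 11 was called there by edgeR, while DESeq2 called Prodh (adjusted p = 0.00625). So did edgeR without vehicle 2 (adjusted p = 0.00923), the highest vehicle library for Prodh. That fit had 2646 calls over all genes and raises the Prodh change by construction.

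The vehicle libraries split in pairs. Vehicle 1 and 3 both lay below vehicle 2 and 4 in 41 of the 44 genes, against 25.9% of all genes tested, and both above in 0, against 28.7%. The mean log2 level over the 44 genes was 7.49, 8.55, 7.11 and 8.54 in vehicle 1 to 4 and 8.36 to 8.50 in SSO, so vehicle 2 and 4 were slightly above every SSO library. Vehicle 3 was the lowest vehicle library for 38 genes. With vehicle 1 and 3 left out together, the median over the 44 genes was -0.13, 32 of them were below 0, and Csad remained the 1 called. The set was thus shifted upward with vehicle 1 and 3 kept and not without them. This pair had the lowest mean levels over these same genes, so leaving it out lowers the change by construction. The fit is not a test of the direction.

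Oat had the widest vehicle range of the set, with vehicle 2 far above the other vehicle libraries. Its vehicle libraries stood at 145, 4525, 124 and 463 CPM, a 36.4-fold range, and its SSO libraries at 1130, 1523, 1543 and 1307 CPM. The SSO libraries thus lay above 3 vehicle libraries and below the other (log2 0.07 ± 1.02 SE, adjusted p = 0.977). Tat had 626, 2602, 419 and 1957 CPM in vehicle and 1599 to 2047 CPM in SSO, and Sds had 56.9, 302, 61.1 and 271 CPM in vehicle and 265 to 364 CPM in SSO. Both show the same pair of low libraries. Hpd, at 1220, 2956, 881 and 2393 CPM in vehicle and 1951 to 2284 CPM in SSO, had its SSO libraries inside the vehicle range.

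The other genes with the highest mean of their route over all 14 libraries had wide vehicle groups too. Bhmt stood at 2063, 3404, 1843 and 4682 CPM in vehicle and at 4877, 3080, 5571 and 4793 CPM in SSO (adjusted p = 0.346). Tdo2 was at 308, 748, 200 and 940 CPM in vehicle and 530 to 674 CPM in SSO. Uroc1 was at 536, 889, 489 and 942 CPM in vehicle and 844 to 963 CPM in SSO. In each of these the low pair was vehicle 1 and 3. Ivd was at 170, 295, 137 and 358 CPM in vehicle and 269 to 281 CPM in SSO, Agxt at 225, 741, 195 and 463 CPM and 275 to 412 CPM, and Aass at 130, 329, 95.9 and 277 CPM and 192 to 246 CPM, again with SSO inside the vehicle range.

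Remaining genes that fell in HFD liver had these vehicle levels. Gnmt was at 813, 1306, 437 and 1684 CPM in vehicle and 1436, 2065, 1671 and 1761 CPM in SSO (log2 0.71 ± 0.37 SE, adjusted p = 0.307). Cth was at 210, 844, 163 and 779 CPM in vehicle and 556 to 968 CPM in SSO. Cdo1 was at 758, 1580, 644 and 1450 CPM in vehicle and 1323 to 1546 CPM in SSO. All 3 had overlapping groups. Ahcy departed from the pairing, with 927, 864, 578 and 1880 CPM in vehicle, and its SSO libraries were close together at 1158 to 1209 CPM. Gpt was at 375, 458, 283 and 645 CPM in vehicle and at 519, 618, 527 and 533 CPM in SSO.

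Most list sums followed the vehicle pairs and some other measures did not. Macrophage markers summed to 943, 191, 868 and 229 CPM in vehicle 1 to 4, opposite to the amino acid genes, and to 287 to 481 CPM in SSO. Stellate cell and fibroblast markers summed to 779, 177, 714 and 284 CPM in vehicle and 186 to 287 CPM in SSO. Col3a1, a fibrillar collagen, was at 116 ± 76.5 CPM in vehicle and 32.6 ± 6.63 CPM in SSO (adjusted p = 0.111). Cholangiocyte (134, 44.5, 163 and 41.3 CPM), neutrophil (34.1, 4.08, 55.7 and 4.25 CPM) and sinusoidal endothelial sums were also higher in vehicle 1 and 3. Sums of other enzymes, carriers, regulators, clock genes and erythroid markers were lower in vehicle 1 and 3. Hepatocyte secreted-protein sums were lower there too, with a smaller relative gap, at 102320, 114640, 87196 and 129690 CPM. Lymphocyte sums did not split this way (7.13, 8.71, 10.4 and 2.94 CPM). The share of counts from mitochondrially encoded genes did not split in the same pairs, at 4.99%, 22.5%, 11.5% and 9.15% in vehicle and 15.2% to 17.6% in SSO. Cell-cycle genes did not either, with vehicle 4 close to vehicle 1 and 3. They summed to 145, 55.6, 177 and 175 CPM in vehicle and 47.7 to 58.9 CPM in SSO. Of them, edgeR called Cdk1 lower (log2 -2.23, adjusted p = 0.0396) and DESeq2 called 7 lower. At an unadjusted p under 0.05 all 12 were lower, where 12.5% of all genes were. No gene of the lists of enzymes, carriers, regulators, clock genes or markers was called in SSO against vehicle by edgeR. Of the 51 other enzymes, 9 were higher and 0 lower at an unadjusted p under 0.05, and DESeq2 called 2 of them. Carriers had 4 lower and 3 higher (DESeq2 2 and 2), clock genes 1 and 4 (0 and 1), and regulators 1 and 2 (1 and 0). Stellate cell and fibroblast markers had 4 lower (DESeq2 4), macrophage markers 2 (2), erythroid markers 2 (1) and secreted proteins 1 (1). Cholangiocyte markers had 1 lower and 1 higher (DESeq2 1 and 0), and the other marker lists had 0. The part of each in the result was not tested.

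**Figure D5:**
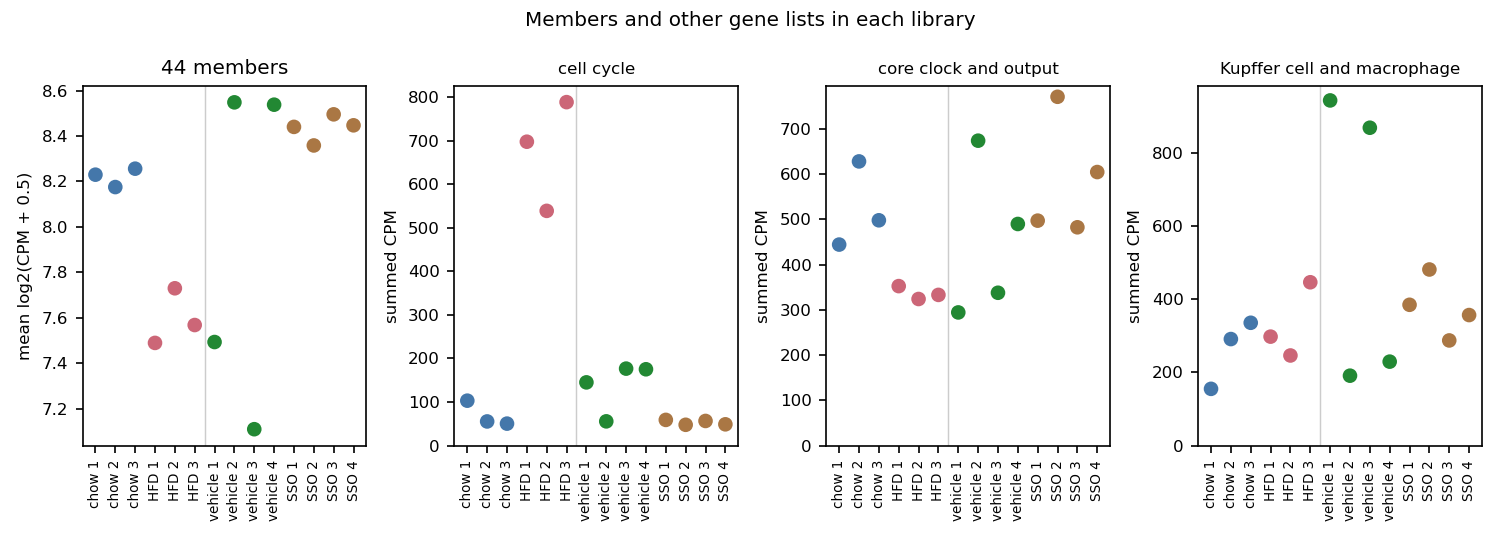
Each point is a library: mean log2(CPM + 0.5) of the 44 genes (left) and summed CPM of the cell-cycle, clock and macrophage lists, with the diet and inhibitor experiments separated by a grey line. HFD libraries are lowest of the diet experiment in the first panel and highest in the second; vehicle 1 and 3 are low in the first panel and high in the last.

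The effects of HFD and SSO were also set against each other directly, and they differed for 4 of the 44 genes. In a joint fit of all 14 libraries, the HFD effect minus the SSO effect was called below 0 for 4 of the 44 genes and above 0 for 0 with edgeR, against 1.45% and 2.18% of 17281 genes (3.63% in all); at an unadjusted p under 0.05, 19 were below 0 (against 9.09% of all genes) and 0 above (against 11.3%). The 4 were Csad (log2 difference -3.81 ± 0.58 SE, adjusted p = 0.00221), Prodh (-2.49 ± 0.49, 0.0105), Gnmt (-2.09 ± 0.49, 0.0264) and Bhmt (-2.13 ± 0.50, 0.0268). Sds (-2.57, adjusted p = 0.0586), Mat1a (-2.23, 0.0657) and Cth (-2.40, 0.0660) had differences of similar size that missed the threshold. Of the 44 differences, 40 were below 0, against 49.8% of all genes, with a median of -0.84 against 0.00. With vehicle 1 and 3 left out together, 34 were below 0 and the median was -0.33. Since this pair was low in these same genes, leaving it out moves the differences upward by construction. Csad and Prodh were called in each of the 14 leave-one-out fits, Gnmt in 6 (adjusted p up to 0.0874) and Bhmt in 7 (up to 0.0835).

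The count of 4 was 15 without vehicle 2, 9 without vehicle 4 and 2 without HFD 1, HFD 3, SSO 3 or SSO 4. Calls over all genes, 628 with every library kept, were 2513 without vehicle 2 and 1055 without vehicle 4. They were 319, 348, 455 and 396 without HFD 1, HFD 3, SSO 3 and SSO 4, in that order. The experiments differed in sampling time (40 and 48 hours) and in the sex-linked transcripts given above, so an effect of either cannot be told apart from that of diet against inhibitor. Among the other lists, Bhmt2 had a difference called below 0 (adjusted p = 0.00355), as did the neutral amino acid carrier Slc1a5 (0.00915) and the mitochondrial branched-chain carrier Slc25a44 (0.0471), while the carrier Slc1a4 was called above 0 (0.0305). Slc1a5 stood at 8.83 ± 2.95 CPM in chow, 4.76 ± 0.924 CPM in HFD, 13.6 ± 6.01 CPM in vehicle and 37.4 ± 11.6 CPM in SSO.

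Levels of the 44 genes per kilobase of exon in chow liver spread from 3.56 CPM per kb (Mccc1) and 5.07 (Afmid) to 1754 CPM per kb (Mat1a). After Mat1a came Gnmt (1234 CPM per kb), Oat (951), Hpd (872), Bhmt (763), Cdo1 (753), Tat (744) and Ahcy (576). Spread between libraries was wide at the top, with an SD of 3308 CPM around a mean of 6083 CPM for Mat1a, and the chow libraries of each pair of neighbours in this order overlapped on this scale. In HFD liver Mat1a was at 407, Gnmt at 476 and Bhmt at 269 CPM per kb, while Oat was at 556. Of these 8 genes, 6 were called lower in HFD (Gnmt, Hpd, Bhmt, Cdo1, Tat and Ahcy).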

How the data were processed

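The deposited files hold raw counts per gene, whole numbers that the authors left without normalization. Per the submitters' processing notes, featureCounts 2.0.2, HISAT2 2.2.1, Trim Galore 0.6.1 and DESeq2 were used on build GRCm38 (mm10); strand use, settings and annotation release are not stated there. Each group has 1 record in the labels; columns H and SSO are named for their group, and columns C were read as the controls of their own table, chow or vehicle. Symbols came from GENCODE M21 (55141 of 55487 identifiers matched), with 1-based coordinates. The macrophage and single-cell data of the series were not analysed here.

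Each table was fitted alone with edgeR 4.0.16 in R 4.3.3 (quasi-likelihood test, robust, TMM scaling, filterByExpr), with Benjamini-Hochberg adjustment over all tested genes and a call at an adjusted p under 0.05. The difference of effects came from a joint fit of both tables. CPM used TMM-scaled library sizes, and log2 summaries a pseudocount of 0.5. The procedure was tested on simulated data. Alternatives were median-ratio (RLE) or library-size scaling, no filter, mitochondrially encoded genes left out, DESeq2 1.42.0, limma-voom 3.58.1, a replicate block, each library left out, and vehicle 1 and 3 left out together. No libraries were near-identical. Every member is described by role; levels in every library are given for called members and the most abundant of each role, and called genes of other lists by smallest p. The members and lists were chosen with earlier results of these data known.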

Additional observations from a re-analysis of the deposited data

Results flagged for a closer look

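Of 88 groups of 4 libraries examined (44 genes in vehicle and in SSO), 2 held a library with a gap to the next one that was large for the group's range by Dixon's criterion at the 95% level, where chance gives about 1 group in 20. Oat in vehicle 2 stood at 4525 CPM, with the other vehicle libraries at 124 to 463 CPM. Gpt in SSO 2 stood at 618 CPM, with the other SSO libraries at 519 to 533 CPM.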

How the results depend on the processing

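The number of the 44 genes called in HFD against chow was 11, and 6 with library-size scaling, 6 with the replicate block and 1 to 14 with 1 library left out. With RLE scaling, no filter, mitochondrially encoded genes left out, DESeq2 and limma-voom it was 11 to 16. In SSO against vehicle it was 1, 2 with DESeq2, and 0 to 4 with 1 library left out. The number with a difference of effects was 4, 7 with vehicle 1 and 3 left out together (6 below 0, and Aadat above), and 2 to 15 with 1 library left out. Calls over all genes varied too with 1 library left out, from 86 to 681 (diet), 0 to 2646 (SSO) and 319 to 2513 (difference). No called gene changed direction: of 235 alternative values of the 16 single calls, 169 kept the call and 66 lost it. Of 116 uncalled values, 45 changed sign in some alternative, with 0 called. Library-size scaling shifted the median log2 change of all genes by 0.15 (diet), -0.16 (SSO) and 0.33 (difference), and then 37, 7 and 38 of the 44 were below 0. It moved calls over all genes from 112 lower and 249 higher to 60 and 336 in the diet comparison, from 21 and 50 to 4 and 33 in the inhibitor comparison, and from 251 and 377 to 176 and 542 in the difference. DESeq2 called 859 genes in the diet comparison (361 with edgeR) and 1136 in the inhibitor comparison (71). Same-numbered libraries did not deviate together (correlations of 0.02, -0.12 and -0.01 in the diet table, and of -0.10 to 0.05 in the other). With so few libraries per group, this check cannot exclude a pairing by number. Under the replicate block 5 of the 11 diet calls remained and Mat1a was added, while in SSO against vehicle the count was 1. The cause of these shifts was not tested. The lowest member mean in any group was 11.6 CPM, above the highest floor of 0.136 CPM; whether depth or group size set the number of calls was not tested.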
